A study of Caenorhabditis elegans with 28 samples.

Results

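miR-246 is a microRNA (miRNA) of Caenorhabditis elegans that is made from a single hairpin, and both of its mature arms, miR-246-3p and miR-246-5p, are described here. They are 2 of the 437 mature miRNA arms counted in the series, and they were selected on their rise over the hours of these same libraries, so that their rise, onset, slopes and lag are given as a description with no test. What the selection did not use is the difference between strains, and only that was tested. Small RNAs of whole larvae were sequenced from HW3527, a strain carrying the allele tm2321 of ebax-1, and from N2, the wild type. Arrested L1 larvae were plated on food without further treatment, and each strain gave 14 libraries, 1 for every hour from 18 to 31 h after plating. Each library pooled many animals, and with 1 library per strain and hour the strain cannot be told apart from the culture it was grown in. All levels below are normalised counts, meaning reads of an arm scaled to the mean library total, and each is thus a share of all counted miRNA reads. In whole animals, more cells that make a miRNA and more of it per cell cannot be told apart.

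A miRNA hairpin is cut into a duplex, of which the guide arm stays bound to an Argonaute protein while the passenger arm is usually released and degraded soon after. The passenger arm therefore often follows the making of new hairpins more closely than the long-lived guide does. In C. elegans, mir-246 is best known from studies of ageing, in which the level of a mir-246 reporter in young adults has been tied to the lifespan that the animals reach. EBAX-1 is the substrate receptor of a Cullin-RING ubiquitin ligase, the worm counterpart of mammalian ZSWIM8. In mammals ZSWIM8 acts in target-directed miRNA degradation (TDMD), in which a paired target RNA leads to the loss of the Argonaute protein and the release of its guide. The authors report that EBAX-1 is needed for the decay of several miRNAs in worm larvae. They state that reading this decay as TDMD rests on analogy alone, with no trigger RNA yet identified in C. elegans. The question put to these libraries was whether miRNA levels differ in larvae that carry the ebax-1 mutation.

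The mir-246 gene (cel-mir-246, WBGene00003340) lies on chromosome IV at 10940134 to 10940230 on the plus strand of the WBcel235 annotation, over 97 bp. Its mature arms are annotated at 10940152 to 10940174, with 23 nt, and at 10940194 to 10940214, with 21 nt. On the plus strand the first of these is the 5p arm and the second the 3p arm. The hairpin overlapped no other annotated gene and is thus intergenic, with fic-1 ending 200 bp before it on the same strand and the pseudogene WBGene00014005 starting 729 bp after it. Of the 7 other genes within 10000 bp, 0 were miRNA genes. The ebax-1 gene (WBGene00004140) lies on the same chromosome, at 10286955 to 10293013, 647 kb away.

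Library totals ran from 4970366 to 13223782 counts in the mutant, with a median of 7719984.5, and from 4938126 to 11683557 counts in the wild type, with a median of 8812898. The mutant libraries of 28, 29 and 31 h stood apart, with totals of 5055100, 4970366 and 6125674 counts and with low miR-62, at 301, 647 and 754 normalised counts against at least 1235 in the other 11 mutant libraries. These are 3 of the 4 latest mutant hours, so that the main values of miR-246 that rest on them are also given without them. A count of 0 in a library allowed for up to 3 counts, a normalised count of 1.90 to 5.04 in the mutant and of 2.15 to 5.08 in the wild type, and this floor and all intervals below cover counting error only.

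In both strains miR-246-3p stayed at a low plateau for several hours and then climbed without interruption to the last library. The climb came later and ended lower in the mutant. From mRNA profiles, the authors placed the mutant larvae 3 h behind the wild type in development, so that equal hours are not equal stages. In the mutant, miR-246-3p had 232, 201, 291, 366, 417, 351, 333, 275, 434, 608, 1089, 2394, 2941 and 4876 normalised counts at 18 to 31 h. In the wild type it had 167, 212, 182, 175, 139, 294, 637, 1331, 3165, 3750, 5293, 8939, 13746 and 20589 normalised counts at the same hours. The plateau was not flat in the mutant, where the level passed through a low maximum at 22 h and returned at 25 h to near that of 20 h, whereas the lowest wild-type level was that of 22 h, the last hour before the climb. The mutant had the higher level at 18, 20, 21, 22 and 23 h and the wild type at 19 h, and from 24 h on the mutant was lower at 8 of 8 equal hours, by 0.92 to 2.85 on the log2 scale. At 31 h it ranked 66th among all arms in the mutant and 35th in the wild type. At 18 h its ranks had been 158th in the mutant and 165th in the wild type.

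**Figure D1:**
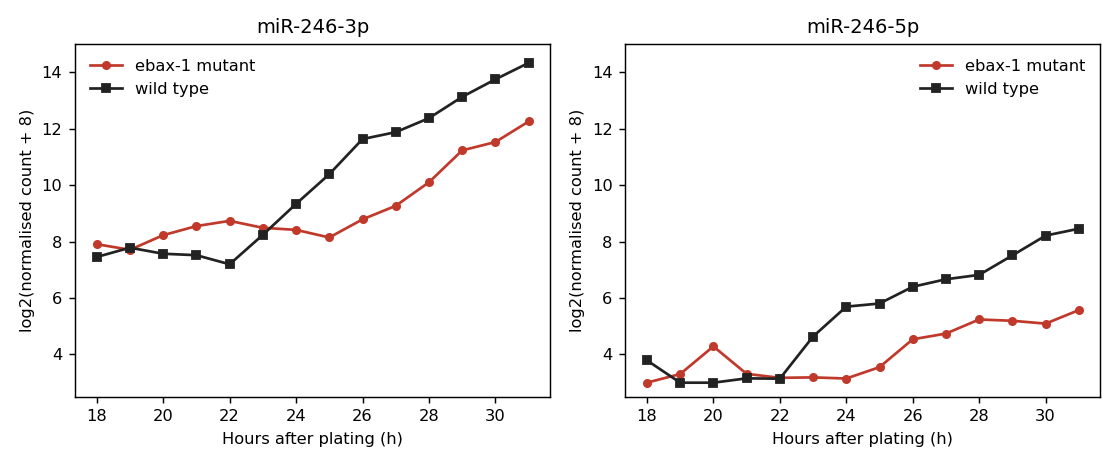
Deposited log2(normalised count + 8) of miR-246-3p (left) and miR-246-5p (right) against hours after plating, with 1 point per library for the ebax-1 mutant (red circles) and the wild type (black squares). Both arms left their plateau about 3 h later in the mutant, and at 31 h both were lower there than in the wild type.

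miR-246-5p was far rarer in both strains and was close to absent on the plateau. In the mutant it had 0, 1.90, 11.5, 1.94, 1.01, 1.11, 0.859, 3.71, 15.2, 18.7, 29.8, 28.6, 26.1 and 39.6 normalised counts at 18 to 31 h. In the wild type it had 5.84, 0, 0, 0.894, 0.830, 16.8, 43.8, 47.9, 76.4, 93.4, 105, 174, 289 and 343 normalised counts at those hours. These rest on few reads, from 0 to 29 in the mutant libraries and from 0 to 316 in the wild-type libraries. Before the climb, only the mutant library of 20 h, with 9 reads, and the wild-type library of 18 h, with 8 reads, were above the floor of 3 counts in their library. From 28 to 30 h the mutant level of the 5p arm moved by less than its counting error, with 18, 17 and 22 reads and exact Poisson intervals of 10.7 to 28.4, 9.90 to 27.2 and 13.8 to 33.3 reads, while the 3p arm kept climbing. In the wild type both arms climbed through these hours.

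Onset was taken as the first hour from which every later library of a strain stayed above 2 times the mean of its libraries of 18 to 20 h. By this measure the 3p arm left its plateau at 27 h in the mutant and at 24 h in the wild type, and the 5p arm at 26 h in the mutant and at 23 h in the wild type. The strains were thus 3 h apart for either arm. The 5p arm was 1 h ahead of the 3p arm in both strains, a lead that was gone with a factor of 1.5 in place of 2, which put both arms at 26 h in the mutant and at 23 h in the wild type. With a factor of 4 the 5p arm was at 27 h in the mutant and 23 h in the wild type. The plateau mean behind this measure was 241 ± 45.9 normalised counts of the 3p arm in the mutant and 187 ± 22.9 in the wild type (SD, n = 3 libraries each). For the 5p arm it was under the floor or near it, at 4.47 ± 6.17 normalised counts in the mutant and 1.95 ± 3.37 in the wild type (SD, n = 3 libraries each), so that no fold over the plateau is given for this arm.

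Fixed levels gave the same order of delay for the 3p arm. It stayed above 512 normalised counts from 26.5 h in the mutant and from 23.7 h in the wild type, by linear interpolation on the log2 scale, a difference of 2.78 h. Above 1024, 2048 and 4096 normalised counts the difference was 3.25, 3.30 and 3.40 h. The level of 256 was not usable in this way, since the mutant plateau itself stayed above it from 19.7 h. The 5p arm passed 8 and 16 normalised counts 2.79 and 3.26 h later in the mutant, but 32 normalised counts at 30.5 h in the mutant and 23.7 h in the wild type, 6.82 h later. That last crossing lies within counting error, since the mutant libraries of 28, 29 and 30 h had exact Poisson intervals of 17.6 to 47.0, 16.7 to 45.8 and 16.4 to 39.5 normalised counts, which all hold 32.

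Once under way, the slopes of the 3p arm in the strains lay within their standard errors, while the 5p arm rose more slowly in the mutant. From onset on, miR-246-3p rose by 0.74 ± 0.07 log2 units per hour in the mutant (SE, 5 libraries) and by 0.68 ± 0.04 in the wild type (SE, 8 libraries), which corresponds to a doubling time of 1.34 h in the mutant and 1.48 h in the wild type on normalised counts without the pseudocount. The interval of hours behind these slopes differs, since the mutant climb was followed for fewer hours. Over the steepest 4 neighbouring libraries the slope of the 3p arm was 0.82 log2 units per hour in the mutant, at 26 to 29 h, and 1.12 in the wild type, at 23 to 26 h. miR-246-5p rose by 0.18 ± 0.05 log2 units per hour from its onset in the mutant (SE, 6 libraries) and by 0.44 ± 0.03 in the wild type (SE, 9 libraries). On normalised counts without the pseudocount these slopes of the 5p arm were 0.24 ± 0.06 in the mutant and 0.50 ± 0.04 in the wild type, a doubling time of 4.23 h in the mutant and 2.02 h in the wild type. Without the mutant libraries of 28, 29 and 31 h, the mutant slope on the log2(normalised count + 8) scale was 0.75 for the 3p arm, from 2 libraries, and 0.13 ± 0.02 for the 5p arm (SE, 3 libraries). Its steepest 4 libraries gave 0.58 log2 units per hour in the mutant, at 24 to 27 h, and 0.91 in the wild type, at 21 to 24 h. By 31 h the 3p arm stood at 20.2 times its plateau mean in the mutant and at 110 times in the wild type, where the climb had by then lasted 3 h longer.

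Over all 14 libraries, the 3p arm rose by 0.31 ± 0.05 log2 units per hour in the mutant and 0.60 ± 0.05 in the wild type (SE, n = 14 each). The 5p arm rose by 0.19 ± 0.03 log2 units per hour in the mutant and 0.46 ± 0.04 in the wild type (SE, n = 14 each), values that the pseudocount sets in large part, with 0.37 in the mutant and 0.67 in the wild type for a pseudocount of 1 and 0.085 in the mutant and 0.29 in the wild type for 32. Among the 257 arms that averaged 10 normalised counts or more, the 3p arm had the 11th highest slope in the mutant and the 4th highest in the wild type, and the 5p arm the 15th highest in the mutant and the 9th highest in the wild type. The median slope of these arms was -0.02 log2 units per hour in the mutant and -0.01 in the wild type, and 102 arms in the mutant and 109 in the wild type had a positive slope. The steep climb of miR-246 was therefore shared with few other arms.

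**Figure D2:**
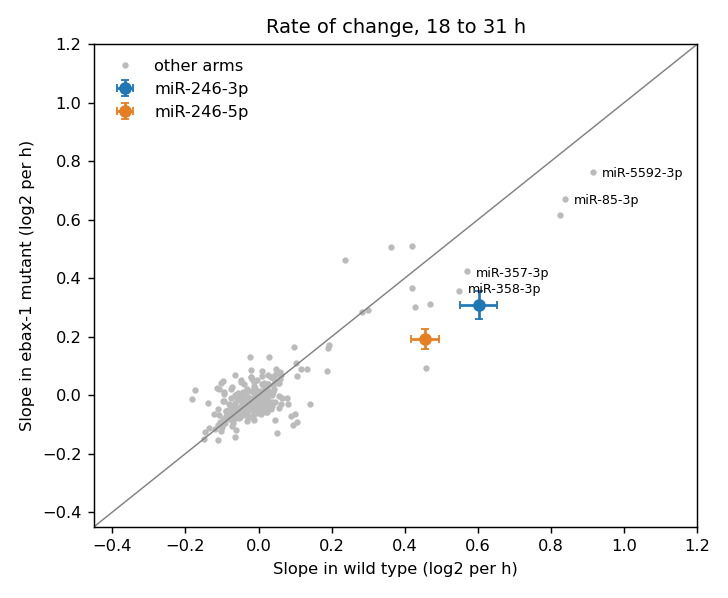
Slope of the log2 value on hour over 18 to 31 h in the ebax-1 mutant (vertical axis) against the wild type (horizontal axis), in log2 units per hour, with 1 point for each of 257 arms and standard errors for the miR-246 arms. The line marks equal slopes, and both arms of miR-246 lie to the right of it, with 0.31 in the mutant against 0.60 in the wild type for the 3p arm.

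The strains were then aligned by the lag that left the smallest root mean square (RMS) log2 difference between mutant and wild-type levels. For miR-246-3p the best lag of the mutant was 3.1 h, with a jackknife SE of 0.229 h over 28 libraries and a range of 3.1 to 3.3 h when any single library was left out. The RMS difference was 0.637 log2 units at that lag and 1.75 with no lag. Only mutant hours that fell within the wild-type hours after the shift were compared, so that a longer lag rests on fewer libraries. The RMS was 0.692 at 2.9 h and 0.697 at 3 h, and it dropped at 3.1 h, where the mutant library of 21 h left the comparison. The best lag and its narrow range thus depend in part on the hours compared. A constant difference in level between strains, fitted along with the lag, moved the best lag to 4.3 h with an RMS of 0.388, and without the mutant libraries of 28, 29 and 31 h the lag was 2.7 h. Hence the delay of the 3p arm ran from 2.7 to 4.3 h in these fits, and its size depended on how the higher mutant plateau was treated.

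For miR-246-5p the best lag was 3.6 h with a jackknife SE of 1.61 h and a range of 3.5 to 4.8 h, and the RMS difference was 0.730 log2 units at that lag and 1.87 with no lag. Its curve was shallow between 3 and 5 h. Both arms together gave 3.3 h with an SE of 0.329 h. The lag of the 5p arm thus could not be separated from that of the 3p arm. Of 101 arms that averaged at least 50 normalised counts and spanned at least 1 log2 unit in both strains, 11 had their best lag at an end of the range tried, and the other 90 had a median lag of 2.75 h with quartiles of 2.0 and 3.5 h. The delay of miR-246-3p lay within these quartiles, with 61.1% of the 90 arms at or below its lag.

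**Figure D3:**
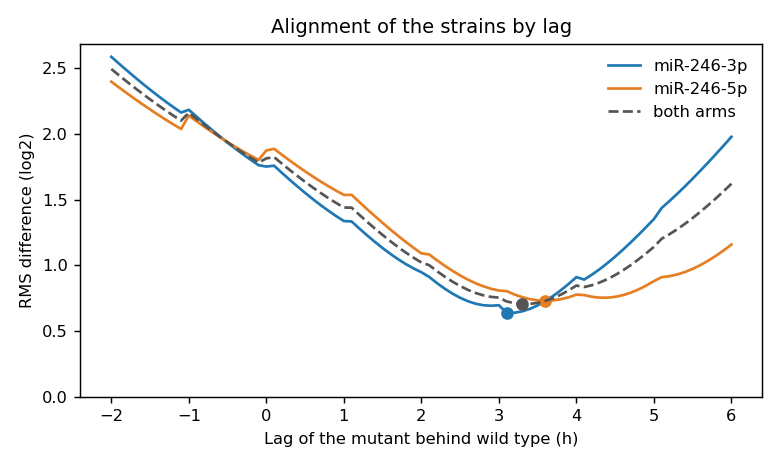
RMS log2 difference between mutant and wild-type levels against the lag of the mutant behind the wild type in hours, for each arm and for both together, with the smallest value marked. The curves reach their lowest values at 3.1 h (3p), 3.6 h (5p) and 3.3 h (both), and that of the 5p arm is the flattest beyond them.

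With the delay taken out, the strain itself was tested. Mutant libraries of 21 to 31 h were matched to wild-type libraries of 18 to 28 h, which gives 11 matched hours. The authors chose this pairing for the 3 h developmental delay that they found in the mutant. limma fitted a B-spline of matched hour in each strain to all 406 arms with a read, and an arm was called if a joint F test of every strain term gave an adjusted p under 0.01, which 16.5% of the arms reached (10.8% being lower in the mutant). The replicate error in this test is the scatter of single libraries around a smooth curve. miR-246-3p was called, with a mean difference of 0.38 ± 0.08 log2 units (SE) and an adjusted p of 0.00536. Its mean level over the matched hours was 1280 ± 1499 normalised counts in the mutant and 1395 ± 1819 in the wild type (SD, n = 11 hours), a spread that is the climb itself.

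At the matched hours the observed difference changed sign, with the plateau higher and the climb slightly lower in the mutant, although the interaction terms below did not pass. The 3p arm passed 512 normalised counts 2.78 h later in the mutant, and 1024 to 4096 normalised counts 3.25 to 3.40 h later. Whether the lower climb goes beyond a delay of more than 3 h was not tested. At the 11 matched hours, from 18 to 28 h of the wild type, the difference in miR-246-3p (mutant minus wild type) was 1.10, 0.95, 0.92, 0.90, 0.95, 0.55, -0.07, -0.29, -0.40, -0.35 and -0.12 log2 units. It was above 0 at 6 hours and below 0 at 5, with a mean of 0.96 over the first 5 hours and -0.11 over the last 6. At the matched plateau hours the strains did not overlap, with 275 to 417 normalised counts at 21 to 25 h in the mutant and 139 to 212 at 18 to 22 h in the wild type. Outside the matched hours, the mutant libraries of 18, 19 and 20 h had 232, 201 and 291, of which 201 lies within the wild-type range. How many other arms were apart over these successive hours was not tested. The 6 interaction terms, which test whether the difference changes over the hours, had an adjusted p of 0.0866 in limma for miR-246-3p. They thus did not pass the threshold of 0.01, which 0.985% of all arms passed.

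The call for the 3p arm depends on the matching. With a lag of 0, 1 or 2 h in place of 3 h its mean difference was -0.95, -0.52 and -0.064 log2 units, and it was 0.80 with a lag of 4 h. With the matched hour as a block in place of the spline, the limma difference of 0.38 had an adjusted p of 0.106. Without the mutant libraries of 28, 29 and 31 h the difference was 0.62. The F test of all strain terms then lost its call, with an adjusted p of 0.0386 in limma, while the mean alone had 0.00289. The 3p arm also lost its F test call in 13 of the 22 fits that left out 1 library, those of 21, 22, 23, 24, 25 and 28 h in the mutant and of 18, 19, 20, 24, 26, 27 and 28 h in the wild type, with adjusted p of 0.0104 to 0.0246 there in limma. At the 3 h lag, limma kept the call with TMM factors (0.53, adjusted p = 0.00512) and DESeq2 size factors (0.54, 0.00523). The count models kept it too, at 0.56 in edgeR (adjusted p = 0.000402) and 0.56 in DESeq2 (1.06e-09). It was lost in limma with a spline of 3 components (adjusted p = 0.0406) and a pseudocount of 1 (0.0147). The sign of the mean thus turned on the lag taken out, and the limma call on single libraries.

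**Figure D4:**
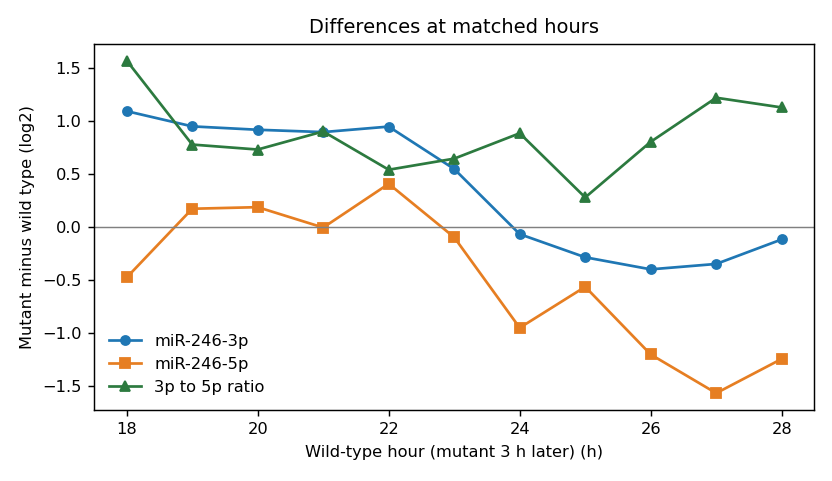
Difference (mutant minus wild type, log2 units) in miR-246-3p, miR-246-5p and their ratio at the 11 matched hours, plotted against the wild-type hour, with the mutant library 3 h older. The 3p arm goes from 1.10 to -0.12, the 5p arm lies at or below -0.57 at the last 5 hours, and the ratio stays above 0 at 11 of 11 hours.

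miR-246-5p differed the other way. It averaged 15.1 ± 14.2 normalised counts in the mutant and 35.5 ± 40.3 in the wild type (SD, n = 11 hours), a mean difference of -0.49 ± 0.11 log2 units (SE). The F test of all strain terms did not reach the threshold, with an adjusted p of 0.0150 in limma, while the mean difference on its own did, with an adjusted p of 0.00443, as for 30.3% of all arms (22.2% lower in the mutant). That second call was lost with TMM factors (adjusted p = 0.0132 in limma), DESeq2 size factors (0.0134), a pseudocount of 1 (0.175), the matched hour as a block (0.0609) and a lag of 4 h (0.230). It was also lost in 7 of 22 limma fits that left out 1 library, those of 28, 29, 30 and 31 h in the mutant and of 26, 27 and 28 h in the wild type, with adjusted p of 0.0130 to 0.0311. Without the mutant libraries of 28, 29 and 31 h the difference was -0.26 log2 units, with an adjusted p of 0.219 for the mean in limma. By matched hour the difference was -0.48, 0.17, 0.19, -0.01, 0.41, -0.10, -0.95, -0.57, -1.21, -1.57 and -1.25 log2 units. It was near 0 on average over the first 5 hours, at 0.06, where nearly every library was at or under the floor, and -0.94 over the last 6. Count models, which weight the near-empty plateau differently, gave mean differences of 0.15 in edgeR and 0.087 in DESeq2, so that no direction over all 11 hours is claimed for the 5p arm. Its interaction terms had an adjusted p of 0.181 in limma.

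Both arms come from 1 hairpin, so that their ratio was compared as well. The log2 ratio of miR-246-3p to miR-246-5p averaged 5.34 ± 0.79 in the mutant and 4.48 ± 0.69 in the wild type (SD, n = 11 hours). The mean difference was 0.86 ± 0.11 log2 units (SE), a factor of 1.82, with an adjusted p of 6.57e-06 in limma over the 96 hairpins with 10 or more normalised counts on average in each arm. The ratio was higher in the mutant at 11 of 11 matched hours, by 0.28 to 1.57 log2 units. On this test 44.8% of the hairpins passed the threshold (29.2% with a higher ratio in the mutant), and 11 hairpins had a larger increase than miR-246, so that such a shift was not particular to it. The F test of all strain terms, which 21.9% of the hairpins passed, gave miR-246 an adjusted p of 0.000846 in limma. In the first 5 matched hours the ratio, higher by 0.91 on average, followed the 3p arm, since the 5p arm was near the floor and held up by the pseudocount of 8, so that a higher 3p level alone raises the ratio there and adds to the mean difference and to the count of hours. In the last 6 it was higher by 0.83 on average while the 5p arm was lower by 0.94.

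During the climb the raw reads go the same way without pseudocount or scaling, but on the matched plateau they were mixed. There the 5p share of the reads of both arms was 0.242, 0.314 and 1.33% in the mutant at 22, 23 and 25 h. The matched wild-type shares, at 19, 20 and 22 h, were lower, at 0, 0 and 0.595%. The mutant share was the lower one at 21 h (0.526 against 3.38%) and 24 h (0.257 against 0.508%). These plateau shares rest on few reads. From the onset of the 3p arm on, miR-246-5p made up 1.19% of the reads of both arms in the mutant (exact Clopper-Pearson 95% interval 0.977 to 1.44%, 106 reads of the 5p arm in 5 libraries) and 2.05% in the wild type (1.93 to 2.17%, 1073 reads in 8 libraries). In each strain the share was higher at the start of the climb than at its end. The mutant had 3.39% at 26 h (1.95 to 5.45%) and came down to 0.805% at 31 h (0.540 to 1.15%). The wild type reached 6.43% at 24 h (4.84 to 8.34%) and came down to 1.64% at 31 h (1.46 to 1.83%). The highest share of all was that of 24 h in the wild type, whereas in the mutant the plateau library of 20 h had 3.80% from 9 reads (1.75 to 7.09%), an interval that holds the share of 26 h.

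At the 6 matched hours from 23 to 28 h of the wild type, the share was lower in the mutant at 6 of 6, and the intervals of the strains lay apart at 3. These were 2.99% in the mutant at 27 h against 6.43% in the wild type at 24 h, 0.880% at 30 h in the mutant against 2.43% at 27 h in the wild type, and 0.805% at 31 h in the mutant against 1.95% at 28 h in the wild type. The comparison can be freed of the lag altogether by reading the wild-type 5p level at the hour when wild-type 3p had the level of a mutant library. On that basis the 5p arm was lower in the mutant at 6 of 6 libraries of 26 to 31 h, with differences of -1.26 to -0.54 log2 units and a median of -0.95. This last comparison is given as a description with no test.

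**Figure D5:**
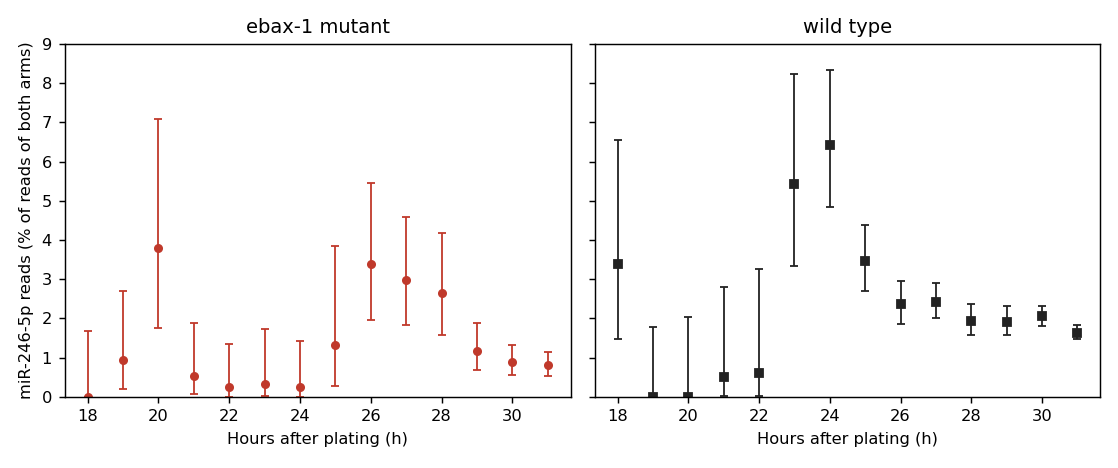
Reads of miR-246-5p as a percentage of the reads of both miR-246 arms against hours after plating, in the ebax-1 mutant (left) and the wild type (right), with exact Clopper-Pearson 95% intervals. After the start of the climb the share came down to 0.805% at 31 h in the mutant and to 1.64% in the wild type.

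The ratio kept its call without the libraries that stood apart. Over the 8 matched hours left without the mutant libraries of 28, 29 and 31 h, with the matched hour as a block, it was higher in the mutant by 0.91 ± 0.14 log2 units (SE) with an adjusted p of 9.9e-05 in limma. Without those mutant libraries the spline fit gave 0.88 ± 0.14 log2 units. With no lag at all it was higher by 0.41 log2 units, the lowest value of all the settings tried, with an adjusted p of 0.00274 in limma. Of the 3 late matched hours at which the intervals of the share lay apart, 1 rests on a library that stood apart, that of 31 h.

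Across all 28 libraries, the log2 profiles most like that of miR-246-3p among 210 arms averaging at least 50 normalised counts in a strain were those of miR-358-5p and miR-358-3p (Pearson r = 0.97 each), miR-5592-5p (0.97), miR-357-3p (0.96) and miR-59-3p (0.95). The median r of the 210 arms was -0.16, and 6 were over 0.9. All points share their libraries, their hours and the selection on a late rise, and these correlations are a description. miR-246-5p itself had r = 0.94 with the 3p arm, with 0.85 within the mutant and 0.98 within the wild type. miR-59-3p had 786 normalised counts at 18 h and 10872 at 31 h in the mutant, against 789 and 19089 in the wild type. miR-357-3p went further in proportion, with 164 at 18 h and 5510 at 31 h in the mutant against 165 and 8223 in the wild type.

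Against the other late-rising arms, a list that was itself drawn from these libraries, miR-246-3p was less steep than most in the mutant, with a slope above 1 of the 6, and of middling steepness in the wild type. The 6 listed arms (miR-85-3p, miR-357-3p, miR-358-3p, miR-359 and both arms of miR-5592) had a median slope of 0.52 log2 units per hour in the mutant and 0.70 in the wild type, and lags of 2.7 to 5.8 h. In the strain test at matched hours 1 of the 6, miR-85-3p, fell in the mutant, by 1.37 ± 0.08 log2 units (adjusted p = 1.22e-05 in limma), 0 rose and 5 did not pass, a share near the 16.5% of all arms called. The median difference was -0.25 beside -0.07 for all arms. Their mean differences ran from -1.37 to 0.29, and the 0.38 of miR-246-3p lay above that range, although leaving out 1 library at a time moved it between 0.30 and 0.47. Whether miR-246-3p differs from these arms was not tested.

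Among 7 guide arms with reported roles in adult lifespan, chosen because mir-246 is known from that field, 2 rose in the mutant, 0 fell and 5 did not pass. Beside these counts and those of the next list, 16.5% of all 406 arms were called, and 10.8% were called lower. The median difference of the 7 lifespan arms was 0.27 log2 units. miR-34-5p, which has been linked to ageing and to stress responses, rose by 1.06 ± 0.07 log2 units (adjusted p = 0.000117 in limma). miR-71-5p, which promotes long life downstream of germline loss, rose by 0.67 ± 0.09 (adjusted p = 0.00404 in limma). Neither climbed as miR-246 did, and the median slope of the list was 0.01 log2 units per hour in the mutant and -0.02 in the wild type. Of the 5 heterochronic guide arms, which time larval cell fates, miR-84-5p fell by 0.75 ± 0.07 log2 units in the mutant (adjusted p = 0.00143 in limma), 0 rose and 4 did not pass, with a median difference of -0.19. let-7-5p, the arm that drives the larval-to-adult switch, was aligned by a lag of 2.9 h and had a mean difference of -0.01 log2 units. Over all 406 arms, 23 were called higher and 44 lower in the mutant, a split that became 29 and 28 with TMM factors and 29 and 24 with DESeq2 size factors.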

How the data were processed

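The authors clipped adapters, mapped reads onto ce10 using QuasR and Bowtie with many hits allowed per read, and counted same-strand reads starting near the 5′ end of each miRBase arm. The sources used here state no version for either. The deposited count table held whole-number reads of 437 arms. The authors also deposited log2 values, made by scaling counts to the mean library total and adding a pseudocount of 8. Recomputation matched these within 5e-04, and 0 pairs of libraries held identical counts. Scaling to the total makes each value a share of miRNA reads, and the pseudocount shrinks differences of the rare 5p arm. Genomic positions came from the WBcel235 annotation and were not mixed with ce10.

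The strain test used limma 3.58.1 in R 4.3.3 on the deposited log2 values, with a cubic B-spline of 6 components, strain and their interaction (22 libraries, 14 coefficients, 8 residual degrees of freedom), Benjamini-Hochberg adjustment over all 406 arms or 96 hairpins, and a threshold of 0.01. Folds are on the log2(value + 8) scale. edgeR 4.0.16 and DESeq2 1.42.0 on the counts, other lags, splines, pseudocounts, scalings, filters, a block for the matched hour and leaving out libraries were tried as alternatives. The models were tested on simulated data. The labels give 1 library per strain and hour and name no separate cultures, so that p-values measure the spread between these libraries only.

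Named arms were both arms of miR-246, the 5 arms most correlated with miR-246-3p, and members of 3 lists. Arms sharing a seed were to be named too, but no sequences are printed and seeds were not compared here. Members and lists were chosen with earlier results of these data known. ebax-1 mRNA was not analysed here.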

Additional observations from a re-analysis of the deposited data

How the results depend on the processing

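The number of arms called for any strain effect, 67, was 133 with a lag of 0 h, 116 with 1 h, 42 with a pseudocount of 1, 106 with a block for each matched hour, and 19 without the mutant libraries of 28, 29 and 31 h. It ranged from 35 to 79 with 1 library left out, and was 35 to 39 without the wild-type library of 24, 25, 26, 27 or 28 h. The mean difference of miR-246-3p (mutant minus wild type) was -0.95, -0.52 and -0.064 log2 units with lags of 0, 1 and 2 h. It lost its call with a spline of 3 components (0.38), a pseudocount of 1 (0.39), the matched hour as a block (0.38), without the mutant libraries of 28, 29 and 31 h (0.62) and over the 8 matched hours left without them (0.62). With 1 library left out it ran from 0.30 to 0.47 and was called in 9 of 22 fits. The mean difference of miR-246-5p passed the F test with lags of 0, 1 and 2 h (-1.35, -1.04 and -0.72), splines of 3, 4 and 5 components (-0.49 each), a pseudocount of 32 (-0.35) and a minimum mean of 10 normalised counts (-0.49). It turned positive in edgeR (0.15), whose F test it passed with an adjusted p of 0.00698, and in DESeq2 (0.087). It was -0.26 without the mutant libraries of 28, 29 and 31 h and did not pass. With 1 library left out it ran from -0.59 to -0.38 and was called in 1 of 22 fits, that without the wild-type library of 22 h. The cause of these changes was not tested.

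The arm ratio of miR-246 stayed higher in the mutant and kept its call in the 14 other settings tried, from 0.41 to 0.98 log2 units, and in 22 of 22 fits without 1 library, from 0.79 to 0.92. In those fits the mean was taken over hours at which both strains kept a library, a choice made after seeing the data. Taken over all 11 hours, which extrapolates at an emptied first or last hour, it ran from 0.51 to 1.19 and lost its call in 3 of 22 fits. Hairpins called for the ratio, 43, numbered 39 to 51 without 1 library. The labels carry no replicate numbers, so that the block paired libraries by matched hour only.

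Onset moved by at most 1 h with other thresholds or scalings, which removed the lead of the 5p arm at 1.5 times the plateau mean. The lag of the 3p arm ran from 2.7 to 4.3 h and that of the 5p arm from 2.8 to 4.8 h, fits without 1 library included. The slope of the 5p arm over 18 to 31 h was 0.37 log2 units per hour in the mutant and 0.67 in the wild type with a pseudocount of 1, and 0.085 in the mutant and 0.29 in the wild type with 32. It was 0.51 in the wild type without the library of 18 h. The depth limits the 5p arm most, since its levels on the plateau rest on 0 to 9 reads. Leaving out the mutant libraries of 28, 29 and 31 h was chosen after seeing the data.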
